A study of Mus musculus with 18 samples.

Results

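Histamine and serotonin are made, stored, taken up and broken down by a small set of proteins, and 5 of their genes were followed here in mouse basophils and mast cells. The genes were Hdc (histidine decarboxylase), Tph1 (tryptophan hydroxylase), Slc18a2 (the vesicular monoamine transporter), Slc6a4 (the plasma membrane serotonin transporter) and Hnmt (histamine N-methyltransferase). They were found by gene symbol in the platform annotation, where each had 1 probe, so they made up 5 of 26423 probes and 5 of the 19084 genes named there. In the mouse assembly GRCm38.p6, RefSeq places Hdc at chr2:126593659-126624025, Tph1 at chr7:46644641-46672537, Slc18a2 at chr19:59260878-59296012, Slc6a4 at chr11:76998597-77032343 and Hnmt at chr2:24002911-24049758; the place of the probes within the genes was not analysed here. Their probe intensities were described over all 6 sample groups, and every test was fitted on the whole array.

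The study used single-dye microarrays on RNA of 18 samples from C57Bl/6 mice, in 6 groups of 3, and its title asks about gene regulation by Cebpa, a transcription factor of myeloid cells. The 4 cultured groups were purified basophils kept for 5 days with interleukin-3 at 20 ng/ml. Treated floxed basophils carried loxP-flanked Cebpa (Cebpa f/f RosaYFP/creER) and received 4-hydroxytamoxifen at 100 nM for those 5 days, and untreated floxed basophils had the same genotype without the drug. Treated wild type basophils (Cebpa +/+ RosaYFP/creER) received the same drug, and untreated wild type basophils did not. All 4 groups thus carried a YFP reporter and a Cre recombinase that 4-hydroxytamoxifen activates. Fresh basophils were isolated from bone marrow 3 days after animals were injected with interleukin-3 complexed to an anti-interleukin-3 antibody. Mast cells were grown from bone marrow for 4 weeks with the same dose of interleukin-3, and no sort is given for them. The labels name no genotype for the fresh basophils and mast cells, and no age, pooling of animals, driver of the Cre or sort for YFP for any group. The labels do not tell whether replicates were separate animals or cultures, and p-values therefore reflect the spread between these samples alone, which may be technical.

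Histamine is formed from histidine in 1 step by histidine decarboxylase, and serotonin from tryptophan by tryptophan hydroxylase, the rate-limiting step, followed by aromatic amino acid decarboxylase. Both amines are pumped into secretory granules by the vesicular monoamine transporter and held there on sulfated proteoglycan, serotonin outside the cell is recovered by its plasma membrane transporter, and histamine in the cytosol is inactivated by methylation. Basophils and mast cells are the main histamine stores of blood and tissue, and rodent mast cells are also known for serotonin.

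Start regions are shown for Tph1 and Slc6a4, whose drug effects differed most between genotypes, for Slc18a2, the member with a full CRE, and for Hdc, the member with the greatest excess in basophils over mast cells. They are windows of 250 bases before to 50 after an annotated start, on the gene's strand, from RefSeq (GRCm38.p6), where all 5 genes matched by symbol. Capitals mark matches, on either strand, to a GATA motif (GATAA), to the E-box CATGTG, to the cyclic AMP response element (CRE, TGACGTCA) or to its shorter form TGACG, which the CRE itself contains. Motifs were chosen with the sequences in view.
Tph1, chr7:46667328-46667627, minus strand: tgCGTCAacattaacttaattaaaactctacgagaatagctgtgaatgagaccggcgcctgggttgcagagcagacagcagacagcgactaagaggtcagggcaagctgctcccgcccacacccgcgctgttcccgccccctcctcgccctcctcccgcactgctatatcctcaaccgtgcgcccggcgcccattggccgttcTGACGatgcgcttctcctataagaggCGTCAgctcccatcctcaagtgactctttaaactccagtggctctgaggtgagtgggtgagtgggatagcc
Tph1, second annotated start, chr7:46672488-46672787, minus strand: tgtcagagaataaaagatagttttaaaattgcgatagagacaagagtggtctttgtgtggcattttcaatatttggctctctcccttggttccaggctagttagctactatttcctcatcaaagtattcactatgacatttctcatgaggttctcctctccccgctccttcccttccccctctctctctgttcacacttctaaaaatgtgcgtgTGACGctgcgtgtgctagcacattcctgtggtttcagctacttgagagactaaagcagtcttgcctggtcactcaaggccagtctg
Slc18a2, chr19:59260628-59260927, plus strand: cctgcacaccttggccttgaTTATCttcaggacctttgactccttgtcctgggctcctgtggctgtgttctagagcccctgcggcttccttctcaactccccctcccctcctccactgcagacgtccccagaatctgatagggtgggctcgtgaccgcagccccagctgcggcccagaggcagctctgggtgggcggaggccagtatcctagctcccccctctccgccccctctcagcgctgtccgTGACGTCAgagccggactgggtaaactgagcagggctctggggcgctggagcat
Slc6a4, chr11:76998347-76998646, plus strand: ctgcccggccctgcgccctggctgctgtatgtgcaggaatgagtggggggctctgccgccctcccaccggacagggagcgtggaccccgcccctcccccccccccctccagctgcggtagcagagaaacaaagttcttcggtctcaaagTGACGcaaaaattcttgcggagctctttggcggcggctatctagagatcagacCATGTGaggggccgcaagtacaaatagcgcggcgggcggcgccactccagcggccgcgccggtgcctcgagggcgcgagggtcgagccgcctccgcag
Hdc, chr2:126618629-126618928, minus strand: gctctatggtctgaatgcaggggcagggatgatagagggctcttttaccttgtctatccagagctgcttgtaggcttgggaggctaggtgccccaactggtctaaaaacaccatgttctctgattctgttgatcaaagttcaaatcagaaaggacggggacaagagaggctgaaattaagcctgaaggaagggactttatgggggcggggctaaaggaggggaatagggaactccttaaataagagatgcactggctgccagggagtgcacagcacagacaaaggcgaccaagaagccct

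The first Tph1 window held TGACG at 3 places and the second at 1. Slc6a4 had 1 match to TGACG and 1 to CATGTG, and Slc18a2 had 1 full CRE, across its start, and 1 GATA motif. The Hdc window and the Hnmt window (chr2:24049330-24049629, not printed) held none of these. A C/EBP motif, searched as TTGCNNAA, and the E-box CACGTG were found in 0 of the 6 windows. Of all 32851 windows of this length, 10.8% held the C/EBP motif, 25.4% the GATA motif, 7.15% CACGTG, 14.2% CATGTG, 1.79% the CRE and 20.8% TGACG. A match is a run of letters and not a shown binding site, and a window without one says nothing about the factor.

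Array medians lay between 24 and 42 intensity units, array means between 461 and 700.1, and 47.6% to 55.2% of probes reached 30, the limit below which a probe was treated as at background. Arrays of 1 group correlated across probes with Pearson's r of 0.990 to 0.993. Cebpa, the targeted gene, had 69.1, 69.4 and 57.8 normalized intensity units in treated floxed basophils and 1055, 935 and 959 in untreated floxed basophils. It had 2973, 2822 and 2539 in treated wild type and 2280, 2602 and 2226 in untreated wild type basophils. Fresh basophils had 2232, 2393 and 2105 and mast cells 56.8, 63.8 and 45.7. Cebpa was thus lowest among the basophils in the treated floxed group, and in the untreated floxed group it was already lower than in untreated wild type (log2 fold change -1.26, adjusted p = 4.67e-06 in the limma fit described below). The labels do not say whether the probe lies in the deleted stretch.

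All 7 basophil markers were above background in the fresh, the untreated floxed and both wild type basophil groups. Itga2 was at background on all arrays of the treated floxed basophils, and Itga2 and Il4 on all arrays of the mast cells. The basophil markers summed to 118850 to 127155 in treated floxed, 136245 to 139389 in untreated floxed, 133947 to 138739 in treated wild type, 137226 to 145511 in untreated wild type and 126526 to 131772 in fresh basophils, with 60221 to 62765 in mast cells. Mcpt8 (39085 in fresh basophils, 9411 in mast cells) and Prss34 (45013, 1525) made up most of the difference between fresh basophils and mast cells. Fcer1a (16098, 22979) and Ms4a2 (7075, 8280) were higher in mast cells, and Cd200r3 (21182, 19199) overlapped. Of 8 mast cell markers, 7 were measured, and 6 of these were above background in mast cells (Tpsab1 was at background in every group). Cpa3, with deposited values of 53243 to 65473 near the top of the scale in all 6 groups, did not separate them, and the other 6 measured mast cell markers summed to 48247 to 54637 in treated floxed, 8899.7 to 9601 in untreated floxed, 17089 to 18563 in treated wild type, 12820 to 13863 in untreated wild type and 622 to 662 in fresh basophils, with 90823 to 97124 in mast cells. Fresh basophils also carried high levels of markers of other myeloid cells: the 8 neutrophil markers summed to 84191 to 87006 there, against 550.4 to 596 in mast cells, and the 4 eosinophil markers to 45755 to 47367, against 314 to 376. The 5 measured monocyte and macrophage markers summed to 13991 to 16132 in fresh basophils, against 252 to 309 in mast cells, where Csf1r, C1qa, C1qb and Mrc1 were at background. In such bulk samples fewer cells of a type and less RNA per cell cannot be told apart.

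Hdc makes all histamine in these cells and was high in every basophil group and low in mast cells. Its normalized intensity was 15992.5, 14481 and 14787 in treated floxed and 22171, 20786 and 21350.3 in untreated floxed basophils. In treated wild type basophils it was 16646, 19146 and 19646, and in untreated wild type basophils 20515, 21177 and 20392. Fresh basophils had 19796, 19796 and 18528, and mast cells 308, 322 and 314. All 5 basophil groups lay far above mast cells, and among basophils the treated floxed group was the lowest. In order, the groups ran untreated floxed, untreated wild type, fresh, treated wild type, treated floxed and mast cells. Untreated floxed and untreated wild type basophils overlapped, and so did fresh and treated wild type basophils. The untreated wild type and fresh groups, which did not overlap after normalization, overlapped in the deposited values, and so did treated wild type and treated floxed basophils. The highest group mean was 68.1-fold the lowest.

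Tph1, the enzyme that commits tryptophan to serotonin outside the brain, had the opposite cell type pattern. It reached 8941, 7983 and 7908 in treated floxed basophils and 1441, 1415 and 1458 in untreated floxed basophils. Treated wild type basophils had 2240, 2511 and 2138, and untreated wild type basophils 1567, 1678 and 1742.5. Fresh basophils had 15.4, 14.5 and 21.8, at background on every array, and mast cells 17109, 16772 and 16471. Mast cells were highest, followed by treated floxed, treated wild type, untreated wild type, untreated floxed and fresh basophils, and no neighbours in this order overlapped.

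Slc18a2, which loads both amines into granules, varied least. It had 5467, 5437 and 5802 in treated floxed, 4356, 5096 and 4412 in untreated floxed, 3257, 2945 and 4001 in treated wild type and 4864, 4584 and 5442 in untreated wild type basophils. Fresh basophils had 1897, 1708 and 1591, and mast cells 5028, 5028 and 3880. Treated floxed, untreated wild type, mast cell and untreated floxed samples formed a run in which each group overlapped the next. Treated wild type basophils lay above fresh basophils and below the other 4 groups except for 1 of their arrays (4001), which exceeded the lowest mast cell array. The highest group mean was 3.22-fold the lowest.

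Slc6a4, which returns released serotonin to the cell, was the member that separated the cultured groups most. It had 527, 571 and 520.3 in treated floxed basophils and 860.4, 903 and 885 in untreated floxed basophils. In treated wild type basophils it had 4845, 3636 and 3328, and in untreated wild type basophils 1922, 1698 and 1996. Fresh basophils had 186, 225 and 200.4, and mast cells 65.4, 72.1 and 50.7. The order was treated wild type, untreated wild type, untreated floxed, treated floxed, fresh and mast cells, with no overlap between neighbours and a 62.8-fold span between group means.

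Hnmt, which methylates histamine in the cytosol, was dim everywhere except in fresh basophils. It had 31.4, 24.8 and 23.5 in treated floxed and 25.5, 27.5 and 26.8 in untreated floxed basophils. Treated wild type basophils had 54.1, 60.6 and 66.4, and untreated wild type basophils 50.6, 43.8 and 54.4. Fresh basophils had 253, 227 and 242, and mast cells 9.33, 6.50 and 4.78. The untreated floxed basophils and the mast cells were at background on every array, and the treated floxed basophils on 2 of 3. The 2 floxed groups overlapped each other, as did the 2 wild type groups, and every floxed array was lower than every wild type array. These values were quantile normalized over all 18 arrays, and levels of different probes are not on a common scale.

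**Figure D1:**
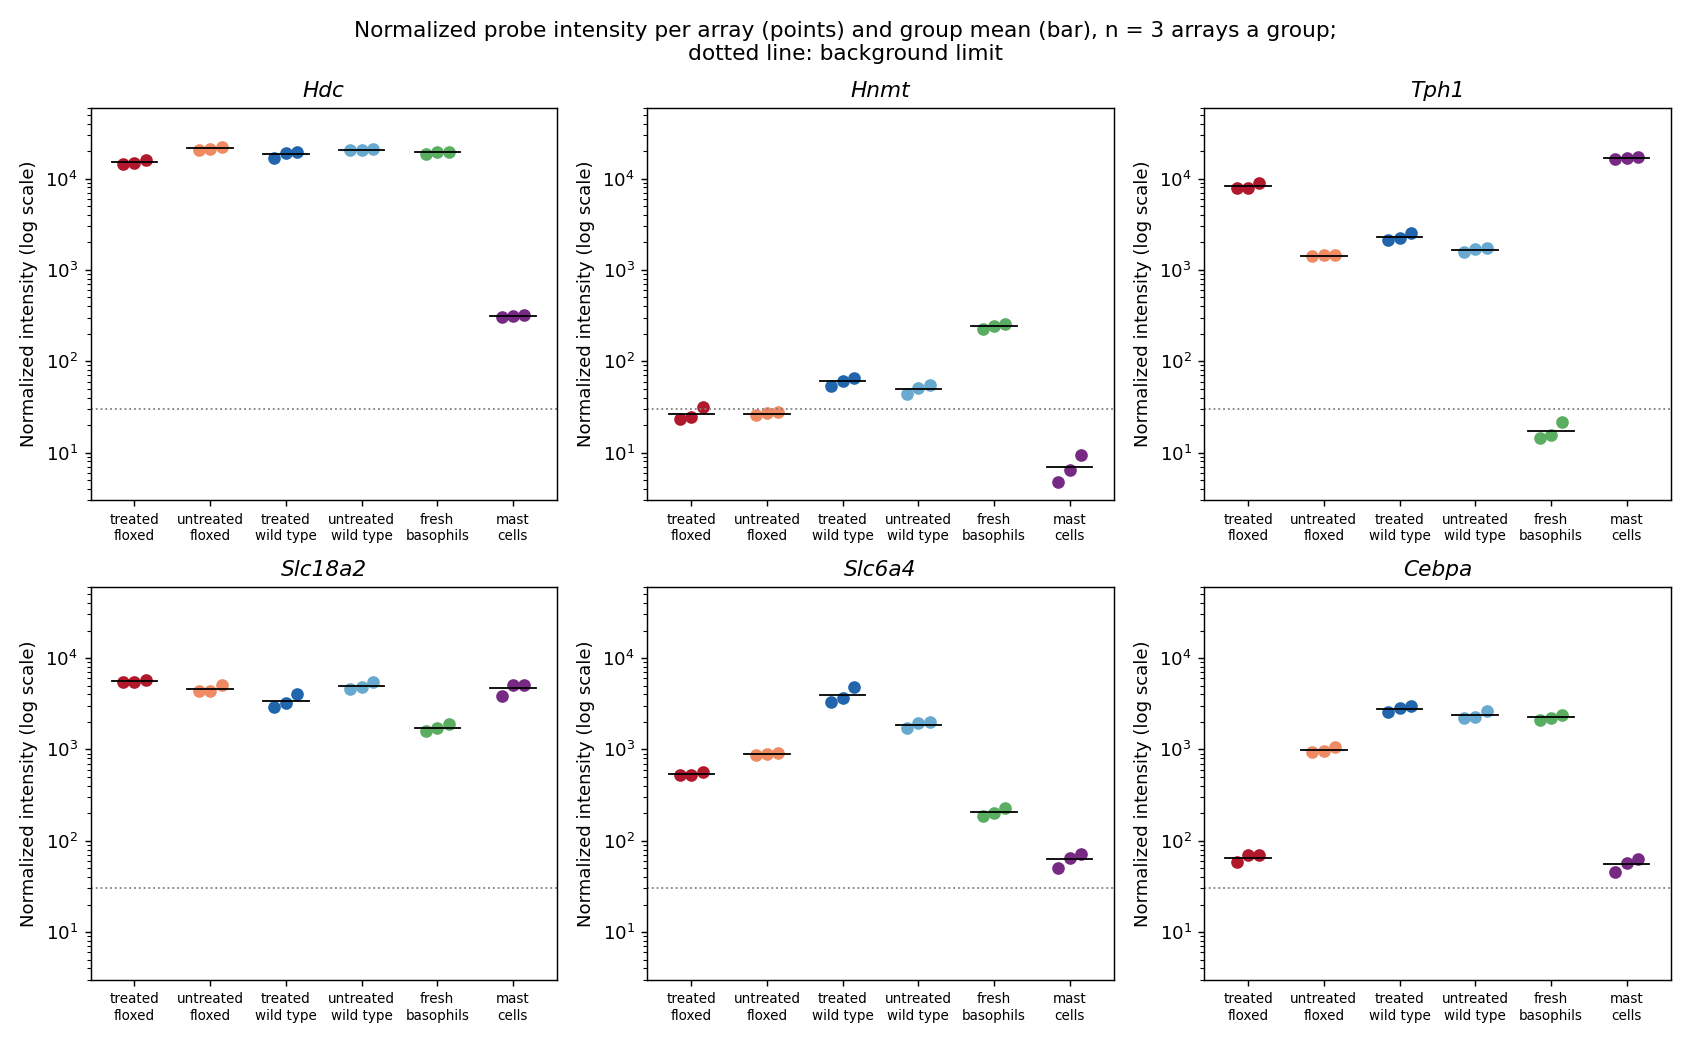
Normalized probe intensity (log axis) of Hdc, Hnmt, Tph1, Slc18a2, Slc6a4 and, for reference, Cebpa on each of the 18 arrays, by group, with points for arrays and short lines for group means; the dotted line is the background limit of 30. Hdc sits at 14481 or more in every basophil group and near 314 in mast cells, whereas Tph1 averages 17.3 in fresh basophils and 16784 in mast cells.

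The first comparison set fresh basophils against mast cells, the cell types that share these amines. Hdc, Hnmt and Slc6a4 were higher in fresh basophils and Tph1 and Slc18a2 lower. Tests used limma on log2(intensity + 16), two-sided, on the 6 arrays of both groups, with Benjamini-Hochberg adjustment over all 26423 probes and a threshold of 0.05. At this threshold 37.8% of all probes were called, 17.1% as higher and 20.7% as lower, so a call by itself was common. All 5 members were called. Hdc averaged 19553 ± 675 in fresh basophils and 329 ± 7.68 in mast cells (SD, n = 3 each), a log2 fold change of 5.82 (95% confidence interval 5.62 to 6.03, adjusted p = 4.29e-09), the 54th highest of all probes. Tph1 averaged 17.2 ± 4.17 in fresh basophils and 17064 ± 343 in mast cells. It was at least 569-fold lower in fresh basophils (adjusted p = 3.49e-09), with the 2nd lowest log2 fold change of the array. The bound replaces the background level by 30 intensity units. Slc18a2 averaged 1836 ± 172 in fresh basophils and 4866 ± 684 in mast cells, a log2 fold change of -1.39 (-1.70 to -1.08, adjusted p = 7.09e-05). Slc6a4 averaged 209 ± 21.4 in fresh basophils and 63.4 ± 11.1 in mast cells, a log2 fold change of 1.51 (1.2 to 1.82, adjusted p = 4.20e-05). Hnmt was at least 8.31-fold higher in fresh basophils (adjusted p = 8.97e-08). The part of the neutrophil, eosinophil, monocyte and mast cell marker levels given above in these differences was not tested.

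Most genes of synthesis and cofactors ran with Tph1 in this comparison. Among 9 measured genes of synthesis and cofactors, 7 were lower in fresh basophils, 1 was higher and 1 did not pass the test, with a median log2 fold change of -0.77 against -0.04 over all probes. Ddc, the decarboxylase that completes serotonin, averaged 23.2 ± 12.3 in fresh basophils and 438 ± 41.3 in mast cells (log2 fold change -3.57, adjusted p = 2.66e-06). Gch1, which starts the synthesis of tetrahydrobiopterin, the cofactor of tryptophan hydroxylase, averaged 259 ± 21.3 in fresh basophils and 5265 ± 790.3 in mast cells (-4.26, adjusted p = 8.18e-08). Maob, a monoamine oxidase, averaged 51.8 ± 2.57 in fresh basophils and 2745 ± 121 in mast cells (-5.35, adjusted p = 6.63e-09). Slc6a3, the dopamine transporter, was also lower in fresh basophils (-1.72, adjusted p = 4.47e-06). Hal, which diverts histidine to urocanate, was at least 3.32-fold higher in fresh basophils (adjusted p = 1.43e-05), and Slc18a1, the other vesicular monoamine transporter, at least 1.44-fold higher (adjusted p = 9.41e-06). Of all 49 other pathway genes measured, 6 were higher and 20 lower in fresh basophils, where 17.1% and 20.7% of all probes were.

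Basophils kept in culture were next set against mast cells and against fresh basophils, in a fit of all 18 arrays. After 5 days in interleukin-3, untreated wild type basophils had more Tph1, Slc18a2 and Slc6a4 and less Hnmt than fresh basophils, whereas Hdc did not pass the test. Of all probes, 34.9% differed between cultured wild type and fresh basophils (17.3% higher, 17.6% lower), and 4 of the 5 members did. Hdc differed by a log2 fold change of 0.10 (-0.07 to 0.26, adjusted p = 0.412). Tph1 was at least 55.4-fold higher in cultured basophils (adjusted p = 5.76e-17), the 12th highest log2 fold change of the array. Slc6a4 averaged 1872 ± 155 in cultured and 204 ± 20.1 in fresh basophils (log2 fold change 3.10, 2.83 to 3.38, adjusted p = 6.43e-12). For both genes every cultured array exceeded every fresh one. Slc18a2 averaged 4963 ± 438 in cultured and 1732 ± 155 in fresh basophils (1.51, 1.24 to 1.78, adjusted p = 4.10e-08). Hnmt averaged 49.6 ± 5.40 in cultured and 241 ± 13.1 in fresh basophils (-1.97, -2.19 to -1.76, adjusted p = 6.69e-11). The Cre and reporter are named for the cultured group alone, and how its basophils were first purified is not described, so these cannot be told apart from culture.

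Marker levels moved with this comparison. The 8 neutrophil markers summed to 12207 to 13986 in untreated wild type cultures and to 84191 to 87006 in fresh basophils, and the 4 eosinophil markers to 4210 to 4336 in these cultures and to 45755 to 47367 in fresh basophils. The 6 mast cell markers other than Cpa3 summed to 12820 to 13863 in these cultures and to 622 to 662 in fresh basophils, and Cma1 averaged 8788 in these cultures and 86.4 in fresh basophils, where Mcpt2 was at background. The 5 monocyte and macrophage markers summed to 8774 to 10054 in these cultures and to 13991 to 16132 in fresh basophils. Mast cell markers were thus higher in sum, and markers of the other myeloid cells lower in sum, in the cultures. Within the latter, Lcn2 (4039 in these cultures, 3180 in fresh basophils), Adgre1 (3382, 1154) and Mrc1 (2549, 1614) were higher in the cultures. The 8 measured megakaryocyte and platelet markers summed to 10894 to 12584 in these cultures and to 1860 to 2073 in fresh basophils, with Itga2b at background in both. Pf4 made up most of this sum in every basophil group (10602 in these cultures, 1459 in fresh basophils). At much lower levels, Ppbp (348, 82.9), Treml1 (140, 70.0), Gp9 (129, 88.3), Gp1bb (74.5, 38.1) and Gp6 (38.5, 17.6) were also higher in these cultures. Gp5, of this list, was lower in these cultures (133) than in fresh basophils (180). Platelets are known for taking up serotonin through Slc6a4. The part of these lists in the member values was not tested.

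Among the other pathway genes, 16 of 49 were higher and 6 lower in cultured wild type than in fresh basophils, where 17.3% and 17.6% of all probes were. Precursor supply and cofactor genes were among the largest: Slc7a5, the light chain of a large neutral amino acid transporter that carries tryptophan, averaged 1553 ± 117 in cultured and 353 ± 60.2 in fresh basophils (log2 fold change 2.10, adjusted p = 9.97e-10). Gch1 (1.88, adjusted p = 6.58e-09) and Pdxk, the kinase that makes pyridoxal phosphate, the cofactor of both decarboxylases (1.91, adjusted p = 1.84e-10), were higher as well. Slc6a3 was higher (1.33, adjusted p = 2.16e-08). Htr7, a serotonin receptor coupled to cyclic AMP, was at least 4.80-fold higher in cultured basophils (adjusted p = 4.56e-12). Hal was at least 3.28-fold lower (adjusted p = 3.99e-09).

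Against mast cells, where 39.2% of probes were called (16.9% higher, 22.3% lower), untreated wild type cultures were higher in Hdc (log2 fold change 5.97, adjusted p = 2.55e-18) and Slc6a4 (4.59, adjusted p = 1.61e-14) and lower in Tph1 (-3.32, adjusted p = 1.37e-14). Hnmt was at least 1.65-fold higher (adjusted p = 1.26e-09), and Slc18a2 did not differ past the threshold (0.10, -0.17 to 0.37, adjusted p = 0.592). Its sign turned with median scaling or without mast cell replicate 3. Of the other pathway genes, 9 of 49 were higher and 15 lower than in mast cells. Maob (-4.10, adjusted p = 6.91e-16), Ddc (-2.89, adjusted p = 2.80e-11), Gch1 (-2.37, adjusted p = 2.08e-10) and Ndst2, an enzyme of heparin sulfation in mast cell granules (-1.78, adjusted p = 4.07e-11), were lower in these cultures. Slc7a5 was higher (3.37, adjusted p = 1.07e-12), and Htr7 at least 4.80-fold higher (adjusted p = 3.45e-11).

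**Figure D2:**
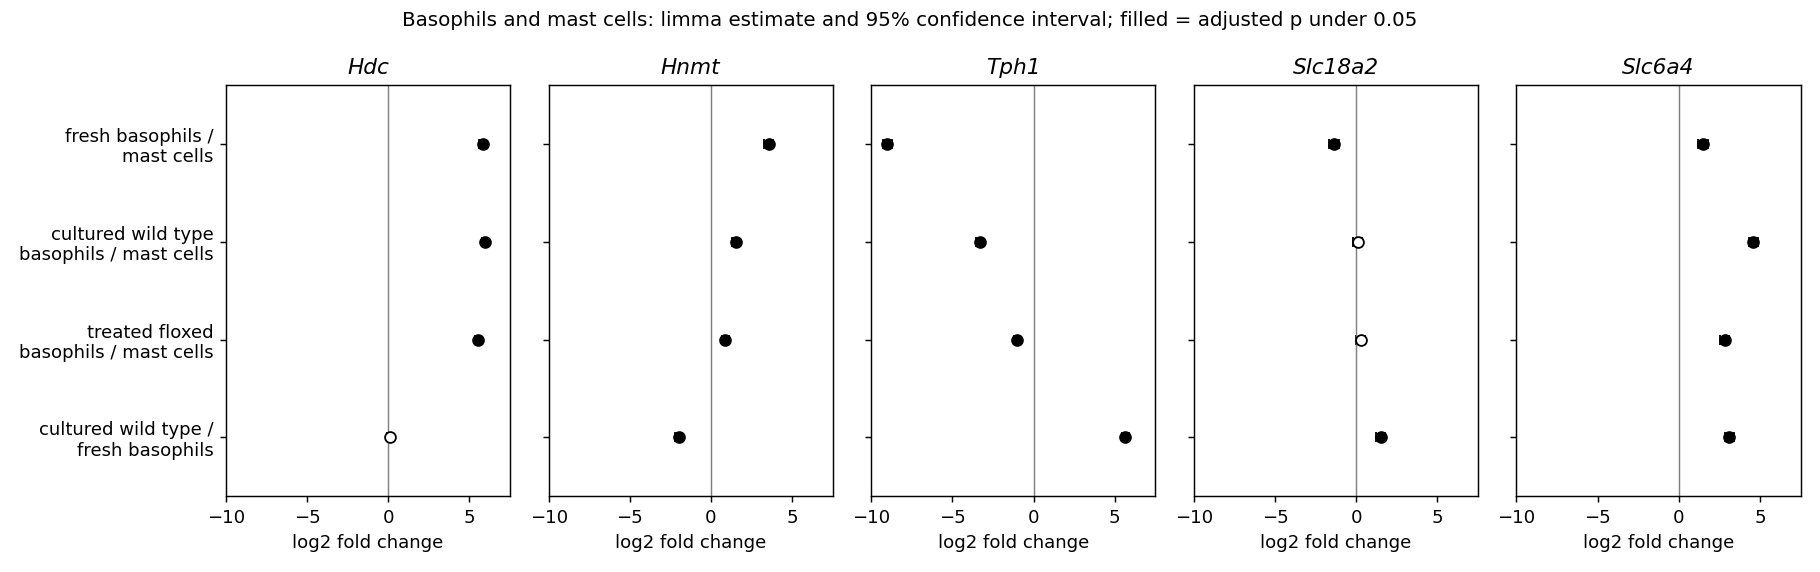
Log2 fold changes of the 5 members, with 95% confidence intervals, for fresh basophils against mast cells, cultured wild type basophils against mast cells, treated floxed basophils against mast cells and cultured wild type against fresh basophils. Hdc lies between 5.51 and 5.97 in the 3 comparisons with mast cells and at 0.10 between the basophil preparations. Tph1 lies at -9.01, -3.32 and -1.02 against mast cells, where the first is the fitted value with fresh basophils at background. Filled points passed the test.

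The comparison of treated floxed with treated wild type basophils set the genotypes side by side in cells that had all received the drug. It includes any difference between the genotypes already present without the drug, which is given further below. Tph1 and Slc18a2 were higher in treated floxed basophils, Slc6a4 and Hnmt lower, and Hdc slightly lower. This and the next comparisons came from 1 limma fit of the 12 cultured arrays, quantile normalized on their own. They share groups with each other, so they are not independent. Of all probes 30% were called (15.4% higher, 14.6% lower), and all 5 members were. Tph1 averaged 8089 ± 578 in treated floxed and 2232 ± 190.1 in treated wild type basophils (log2 fold change 1.85, 1.65 to 2.05, adjusted p = 1.82e-08), the 94th highest of the array. Slc6a4 averaged 523 ± 27.0 in treated floxed and 3836 ± 791 in treated wild type basophils (-2.82, -3.09 to -2.54, adjusted p = 9.62e-09), the 53rd lowest. Both differences exceeded the spread between replicates many times over. Slc18a2 averaged 5446 ± 203 in treated floxed and 3315 ± 536 in treated wild type basophils (0.72, 0.46 to 0.99, adjusted p = 5.36e-04). Hnmt averaged 26.6 ± 4.33 in treated floxed and 60.1 ± 6.09 in treated wild type basophils (-0.84, -1.06 to -0.62, adjusted p = 4.67e-05). Hdc averaged 14890.3 ± 862 in treated floxed and 18386 ± 1640 in treated wild type basophils (-0.30, -0.49 to -0.11, adjusted p = 0.0205). The Hdc call was lost with median scaling, without normalization between arrays, with only these groups in the fit (adjusted p = 0.078), and without replicate 2 or 3 of either group (adjusted p = 0.0557 to 0.0786).

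Most genes of the synthesis and cofactor list were higher with Tph1. Of 9 measured synthesis and cofactor genes, 7 were higher in treated floxed basophils and 0 lower, with a median log2 fold change of 0.95 against -0.00 over all probes. Ddc averaged 914 ± 7.73 in treated floxed and 147 ± 4.70 in treated wild type basophils (log2 fold change 2.51, SE 0.076, adjusted p = 3.68e-10). Gch1 averaged 2431 ± 363 in treated floxed and 918 ± 110.5 in treated wild type basophils (1.39, SE 0.14, adjusted p = 8.03e-06). Gchfr, the feedback regulator of the Gch1 enzyme, and Qdpr, which regenerates tetrahydrobiopterin, were higher by 1.10 (adjusted p = 5.58e-06) and 1.03 (adjusted p = 5.99e-05). Genes of a precursor transporter ran the other way: Slc7a5 (-0.998, adjusted p = 5.18e-05) and its heavy chain Slc3a2 (-1.05, adjusted p = 7.26e-07) were lower. Over all 49 other pathway genes 9 were higher and 10 lower, where 15.4% and 14.6% of all probes were. Receptors were lower in 5 of 18 cases and higher in 0.

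Markers moved here too. The 6 mast cell markers other than Cpa3 summed to 48247 to 54637 in treated floxed and 17089 to 18563 in treated wild type basophils, and Tpsb2, a mast cell tryptase, averaged 8839 in treated floxed and 633 in treated wild type basophils. The 4 eosinophil markers summed to 10732 to 11025 in treated floxed and 3308.5 to 3581 in treated wild type basophils. Both lists were thus higher in sum in treated floxed basophils. Siglecf, of the eosinophil list, was lower (46.7 in treated floxed, 158 in treated wild type). The 8 megakaryocyte and platelet markers summed to 9002 to 11528 in treated floxed and 13844 to 15171 in treated wild type basophils, and the 8 neutrophil markers to 1836 to 2050 in treated floxed and 11482 to 11893 in treated wild type basophils. The 5 monocyte and macrophage markers summed to 3080.1 to 3379 in treated floxed and 8346 to 9327 in treated wild type basophils. These 3 lists were lower in sum in treated floxed basophils. Gp5, of the megakaryocyte and platelet list, was higher (387 in treated floxed, 258 in treated wild type). Of the basophil markers, Prss34 averaged 20028 in treated floxed and 46128 in treated wild type basophils, and Mcpt8 50584 in treated floxed and 48201 in treated wild type basophils. Fcer1a (22649 in treated floxed, 11289 in treated wild type), Ms4a2 (4184, 3470) and Il4 (191, 160) were higher in mean. Itga2 (17.4, 83.6) and Cd200r3 (24664, 26318) were lower in mean. Treated floxed basophils kept Hdc at 5.51 log2 units above mast cells (adjusted p = 1.46e-17), in a comparison with 35.4% of probes called (15.7% higher, 19.6% lower). Their Tph1 remained lower than in mast cells by a log2 fold change of -1.02 (adjusted p = 1.40e-07), and their Slc6a4 higher by 2.83 (adjusted p = 1.83e-11). Hnmt also passed (0.90, adjusted p = 1.66e-06), with mast cells at background and no bound above 1. Slc18a2 did not pass (0.27, 0.00 to 0.54, adjusted p = 0.114). The part of the marker lists in the differences between genotypes was not tested.

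Against mast cells, 7 of the 49 other pathway genes were higher in treated floxed basophils and 14 lower, where 15.7% and 19.6% of all probes were. Ddc (log2 fold change 1.16, adjusted p = 5.05e-06), Gchfr (1.23, adjusted p = 4.50e-08), Pdxk (1.12, adjusted p = 1.90e-07) and Slc7a5 (1.87, adjusted p = 4.59e-09) were higher. Maob (-2.83, adjusted p = 1.55e-13) and Aldh7a1, an aldehyde dehydrogenase (-1.09, adjusted p = 2.16e-07), were lower.

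Without the drug, the genotypes differed less. Untreated floxed basophils had less Slc6a4 and Hnmt than untreated wild type basophils, and the other 3 members did not pass the test, where 14.9% of all probes were called (8.03% higher, 6.83% lower). Slc6a4 averaged 852 ± 20.7 in untreated floxed and 1813 ± 147 in untreated wild type basophils (log2 fold change -1.07, -1.35 to -0.80, adjusted p = 1.08e-04). Hnmt was at least 1.64-fold lower in untreated floxed basophils (adjusted p = 0.00134). Hdc (0.05, -0.14 to 0.24, adjusted p = 0.807), Tph1 (-0.21, -0.40 to -0.01, adjusted p = 0.169) and Slc18a2 (-0.10, -0.36 to 0.16, adjusted p = 0.672) remain uncertain within those intervals. Cebpa itself was lower in the untreated floxed group, as given above. The 8 megakaryocyte and platelet markers summed to 4481 to 5719 in untreated floxed and 10894 to 12584 in untreated wild type basophils, and the 8 neutrophil markers to 5486 to 6182 in untreated floxed and 12207 to 13986 in untreated wild type basophils. The 4 eosinophil markers summed to 7362 to 8389 in untreated floxed and 4210 to 4336 in untreated wild type basophils, and the 6 mast cell markers other than Cpa3 to 8899.7 to 9601 in untreated floxed and 12820 to 13863 in untreated wild type basophils. The 5 monocyte and macrophage markers summed to 6890.0 to 8270.1 in untreated floxed and 8774 to 10054 in untreated wild type basophils. Within this list C1qa (205 in untreated floxed, 1628 in untreated wild type), C1qb, Csf1r and Mrc1 were lower in untreated floxed basophils. Adgre1 went the other way, at 6139 in untreated floxed and 3382 in untreated wild type basophils. The eosinophil list was thus higher and the others lower in sum in untreated floxed basophils. Of the eosinophil list, Prg2 was higher (7640 in untreated floxed, 3890 in untreated wild type), Epx was alike (126, 122) and Siglecf lower (113, 194). Gp5, of the megakaryocyte and platelet list, was higher (250 in untreated floxed, 133 in untreated wild type). The basophil list overlapped in sum. Within it Fcer1a (17538 in untreated floxed, 12214 in untreated wild type), Ms4a2 (6739, 3842) and Il4 (355, 254) were higher and Prss34 (41580, 48945) lower. The part of these lists in the Slc6a4 and Hnmt differences was not tested.

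Of the 49 other pathway genes, 4 were higher and 6 lower in untreated floxed basophils, where 8.03% and 6.83% of all probes were. The 4 were all synthesis and cofactor genes. Ddc averaged 93.8 ± 3.02 in untreated floxed and 41.8 ± 2.98 in untreated wild type basophils (log2 fold change 0.93, adjusted p = 5.21e-06). Gchfr (1.35, adjusted p = 3.11e-06) and Pcbd1, a further enzyme of tetrahydrobiopterin recycling (0.70, adjusted p = 2.41e-04), were also higher. Slc7a5 (-0.56, adjusted p = 0.00787) and Maob (-0.59, adjusted p = 0.00132) were lower, though neither passed with median scaling (adjusted p = 0.214 and 0.0675). Slc18a1 was at least 1.29-fold lower (adjusted p = 0.00361).

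Levels with and without 4-hydroxytamoxifen differed in both genotypes, for Slc6a4 in opposite directions. In floxed basophils, where 18.6% of probes were called (9.43% higher, 9.21% lower), 3 of 5 members were. Tph1 averaged 8089 ± 578 in treated and 1396 ± 21.3 in untreated floxed basophils (log2 fold change 2.52, 2.32 to 2.72, adjusted p = 4.49e-09), the 17th highest of the array. Hdc averaged 14890.3 ± 862 in treated and 21333 ± 661 in untreated floxed basophils (-0.52, -0.71 to -0.33, adjusted p = 0.00116). Slc6a4 averaged 523 ± 27.0 in treated and 852 ± 20.7 in untreated floxed basophils (-0.69, -0.96 to -0.41, adjusted p = 0.00219). The 8 megakaryocyte and platelet markers summed to 9002 to 11528 in treated and 4481 to 5719 in untreated floxed basophils, and the 6 mast cell markers other than Cpa3 to 48247 to 54637 in treated and 8899.7 to 9601 in untreated floxed basophils. Both lists were higher in sum with the drug. The eosinophil list was higher in sum too, at 10732 to 11025 in treated and 7362 to 8389 in untreated floxed basophils. Prg2 made up most of that sum (10555 in treated, 7640 in untreated), whereas Prg3 was alike (82.4, 81.2) and Epx overlapped (166, 126). The neutrophil list was lower (1836 to 2050 in treated, 5486 to 6182 in untreated), as was the monocyte and macrophage list (3080.1 to 3379 in treated, 6890.0 to 8270.1 in untreated). Against these sums, Siglecf of the eosinophil list was lower (46.7 in treated, 113 in untreated). C1qa (342, 205) and C1qb (100, 43.6) of the monocyte and macrophage list were higher, and Mrc1 (847, 734) overlapped. The lower sum of that list came mostly from Adgre1 (1636 in treated, 6139 in untreated), with Csf1r (327, 519) lower too. The part of these lists in the member values was not tested. Slc18a2 (0.27, 0.01 to 0.53, adjusted p = 0.152) and Hnmt (-0.01, -0.23 to 0.21, adjusted p = 0.972) did not pass.

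In wild type basophils, where 20.4% of probes were called (10.7% higher, 9.70% lower), Slc6a4 and Tph1 were higher and Slc18a2 lower with the drug. Slc6a4 averaged 3836 ± 791 in treated and 1813 ± 147 in untreated wild type basophils (log2 fold change 1.06, 0.78 to 1.34, adjusted p = 1.35e-04), the 113th highest of the array. Tph1 averaged 2232 ± 190.1 in treated and 1616 ± 85.4 in untreated wild type basophils (0.46, 0.26 to 0.66, adjusted p = 0.00334), a call lost with median scaling and without normalization. Slc18a2 averaged 3315 ± 536 in treated and 4848 ± 429 in untreated wild type basophils (-0.55, -0.82 to -0.29, adjusted p = 0.00596). Hdc (-0.17, adjusted p = 0.215) and Hnmt (0.22, adjusted p = 0.161) did not pass. The 8 megakaryocyte and platelet markers summed to 13844 to 15171 in treated and 10894 to 12584 in untreated wild type basophils, with Ppbp at 1280.2 in treated and 348 in untreated wild type basophils. The 6 mast cell markers other than Cpa3 summed to 17089 to 18563 in treated and 12820 to 13863 in untreated wild type basophils. Both lists were higher in sum with the drug here as well. Of the mast cell list, however, Tpsb2 (633 in treated, 1225 in untreated) and Mitf (429, 587) were lower with the drug in wild type basophils. In floxed basophils both were higher with it (Tpsb2 8839 in treated, 1056 in untreated; Mitf 1736, 402). The neutrophil list was lower in sum (11482 to 11893 in treated, 12207 to 13986 in untreated). Within it Mpo (1495 in treated, 794 in untreated), Elane (98.8, 44.1) and Ngp (102, 68.8) were higher with the drug. The eosinophil list was lower as well (3308.5 to 3581 in treated, 4210 to 4336 in untreated), and the monocyte and macrophage list overlapped. The part of these lists in the member values was not tested. These cells carry no floxed allele, and their Cebpa probe did not pass the test (0.23, 0.01 to 0.45, adjusted p = 0.147).

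Among other pathway genes, 5 of 49 were higher and 5 lower with the drug in floxed basophils, where 9.43% and 9.21% of all probes were. In wild type basophils 8 were higher and 4 lower, where 10.7% and 9.70% of all probes were. Ddc averaged 914 ± 7.73 in treated and 93.8 ± 3.02 in untreated floxed basophils (log2 fold change 3.08, adjusted p = 1.91e-10), and 147 ± 4.70 in treated and 41.8 ± 2.98 in untreated wild type basophils (1.5, adjusted p = 3.31e-07). Ndst2 averaged 5406 ± 467 in treated and 1571 ± 72.4 in untreated floxed basophils (1.77, adjusted p = 1.37e-07). Maob was higher with the drug in floxed (1.85, adjusted p = 9.77e-08) and in wild type basophils (0.85, adjusted p = 1.15e-04). Htr7 was lower with the drug in both (-1.50, adjusted p = 4.34e-06 in floxed; -1.11, adjusted p = 9.40e-05 in wild type). Gch1 was higher (1.07, adjusted p = 1.36e-04) and Slc7a5 lower (-0.94, adjusted p = 1.68e-04) in treated floxed basophils. In treated wild type basophils Slc7a8, another amino acid transporter light chain, was higher (0.62, adjusted p = 3.43e-04), Ido1, which sends tryptophan towards kynurenine, at least 1.65-fold higher (adjusted p = 0.00412) and Slc18a1 at least 1.29-fold lower (adjusted p = 0.00478), a call lost with an offset of 1 (adjusted p = 0.0507).

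The difference between the drug effects of the genotypes was itself tested, since it sets the effect in cells that can delete Cebpa against that in cells that cannot. It passed for 3 of 5 members, where 11.3% of probes were called (5.46% higher, 5.81% lower). For Tph1 the effect was greater in floxed basophils by 2.06 log2 units (SE 0.13, adjusted p = 1.08e-06), the 51st highest of the array. For Slc6a4 it was lower by -1.74 log2 units (SE 0.18, adjusted p = 6.33e-05), the 75th lowest, with the effects themselves in opposite directions. For Slc18a2 it was greater by 0.83 log2 units (SE 0.17, adjusted p = 0.00773), a call lost with median scaling (adjusted p = 0.201). Hdc (-0.35, -0.62 to -0.08, adjusted p = 0.0995) and Hnmt (-0.23, -0.54 to 0.08, adjusted p = 0.375) did not pass, though Hdc passed with an offset of 50, with an intensity trend and without treated wild type replicate 1.

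In the other pathway genes the interaction passed for 5 upward and 4 downward of 49, where it passed for 5.46% and 5.81% of all probes. Ddc (1.59 log2 units, SE 0.11, adjusted p = 1.96e-06), Ndst2 (1.49, SE 0.14, adjusted p = 3.04e-05) and Maob (1.00, SE 0.14, adjusted p = 6.32e-04) had greater drug effects in floxed basophils. Gch1 (1.09, adjusted p = 0.00316) and Pdxk (0.87, adjusted p = 0.00198) did as well, and both calls were lost with median scaling (adjusted p = 0.087 and 0.159). Aoc1, the diamine oxidase that breaks down histamine outside the cell, is among the 4, but its probe was at background on every array of all 4 cultured groups, so no size is given. Its call was lost without normalization and in 10 of the 12 fits that left out 1 array.

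**Figure D3:**
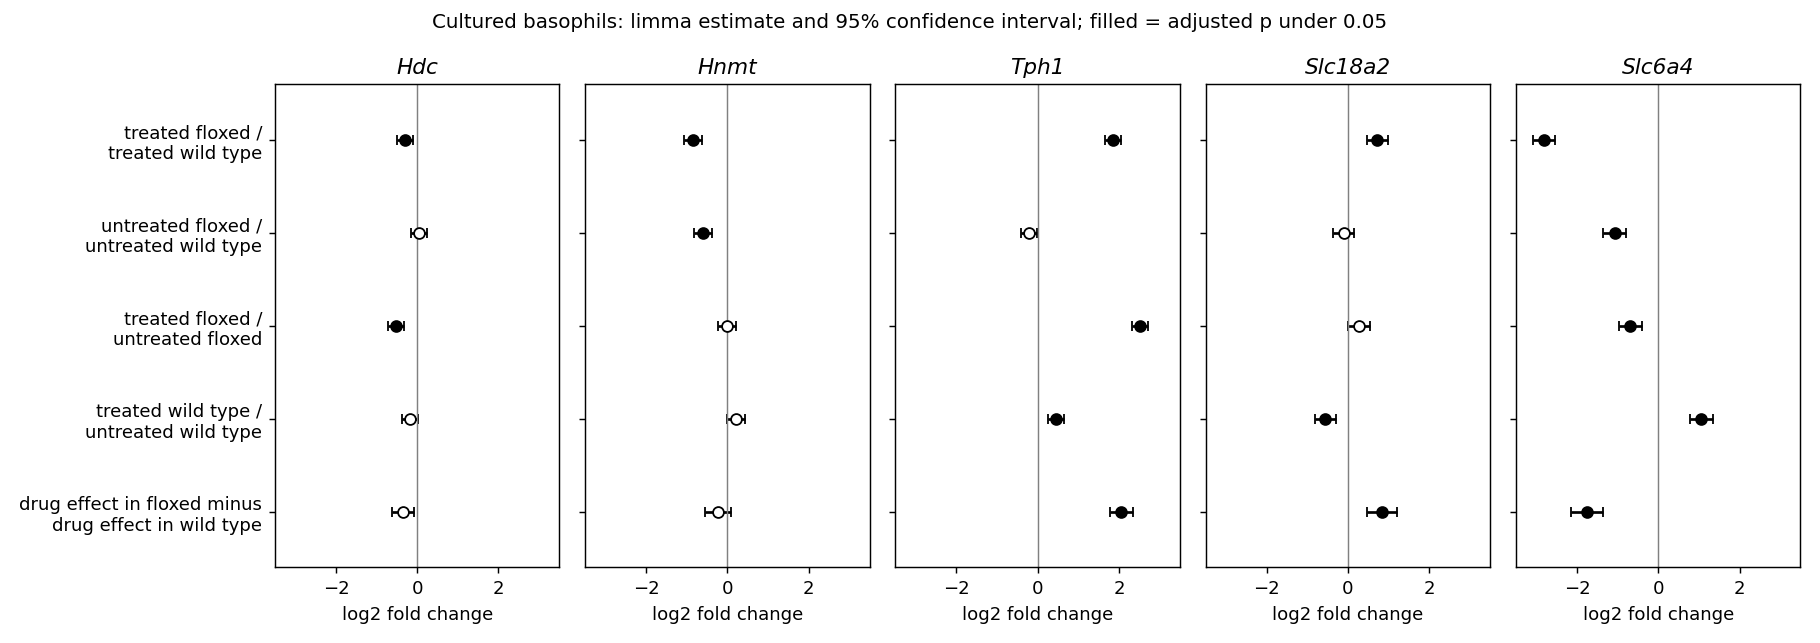
Log2 fold changes of the 5 members, with 95% confidence intervals, for the 5 comparisons among cultured basophils: both genotype comparisons, both drug effects and their difference. Slc6a4 lies at -2.82 between the treated genotypes, at -0.69 for the drug in floxed and at 1.06 for the drug in wild type basophils, and Tph1 at 1.85, 2.52 and 0.46. Filled points passed the test.

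The lists gave 49 other pathway genes that were analysed. Of the 49, 35 were above background in some group and 14 in none. The counts of calls above hold up to 2 genes per comparison, among Maoa, Htr7, Aoc1, Ido1 and Htr3b, that were at background in all groups compared. Ddc averaged 946 ± 8.13 in treated floxed, 94.5 ± 3.12 in untreated floxed, 148 ± 4.89 in treated wild type, 42.1 ± 3.08 in untreated wild type and 23.1 ± 12.1 in fresh basophils, with 415 ± 38.3 in mast cells. Treated floxed basophils thus had the highest Ddc level, above that of mast cells. Hrh2, a histamine receptor, averaged 339 ± 28.4 in treated floxed, 473 ± 23.6 in untreated floxed, 475 ± 12.4 in treated wild type, 516 ± 29.8 in untreated wild type and 414 ± 18.3 in fresh basophils, and 427 ± 7.85 in mast cells. Hrh4, the histamine receptor of blood cells, averaged 169 ± 21.3 in treated floxed, 143 ± 3.25 in untreated floxed, 310.5 ± 15.99 in treated wild type, 215 ± 4.64 in untreated wild type and 129 ± 9.21 in fresh basophils, and 121 ± 6.34 in mast cells. Hrh1 was at background in all 6 groups. Hrh2, Hrh4 and Hrh1 were chosen for mention after their values were seen. Srgn, the proteoglycan core that binds amines in granules, passed the test in 0 of 9 comparisons.

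**Figure D4:**
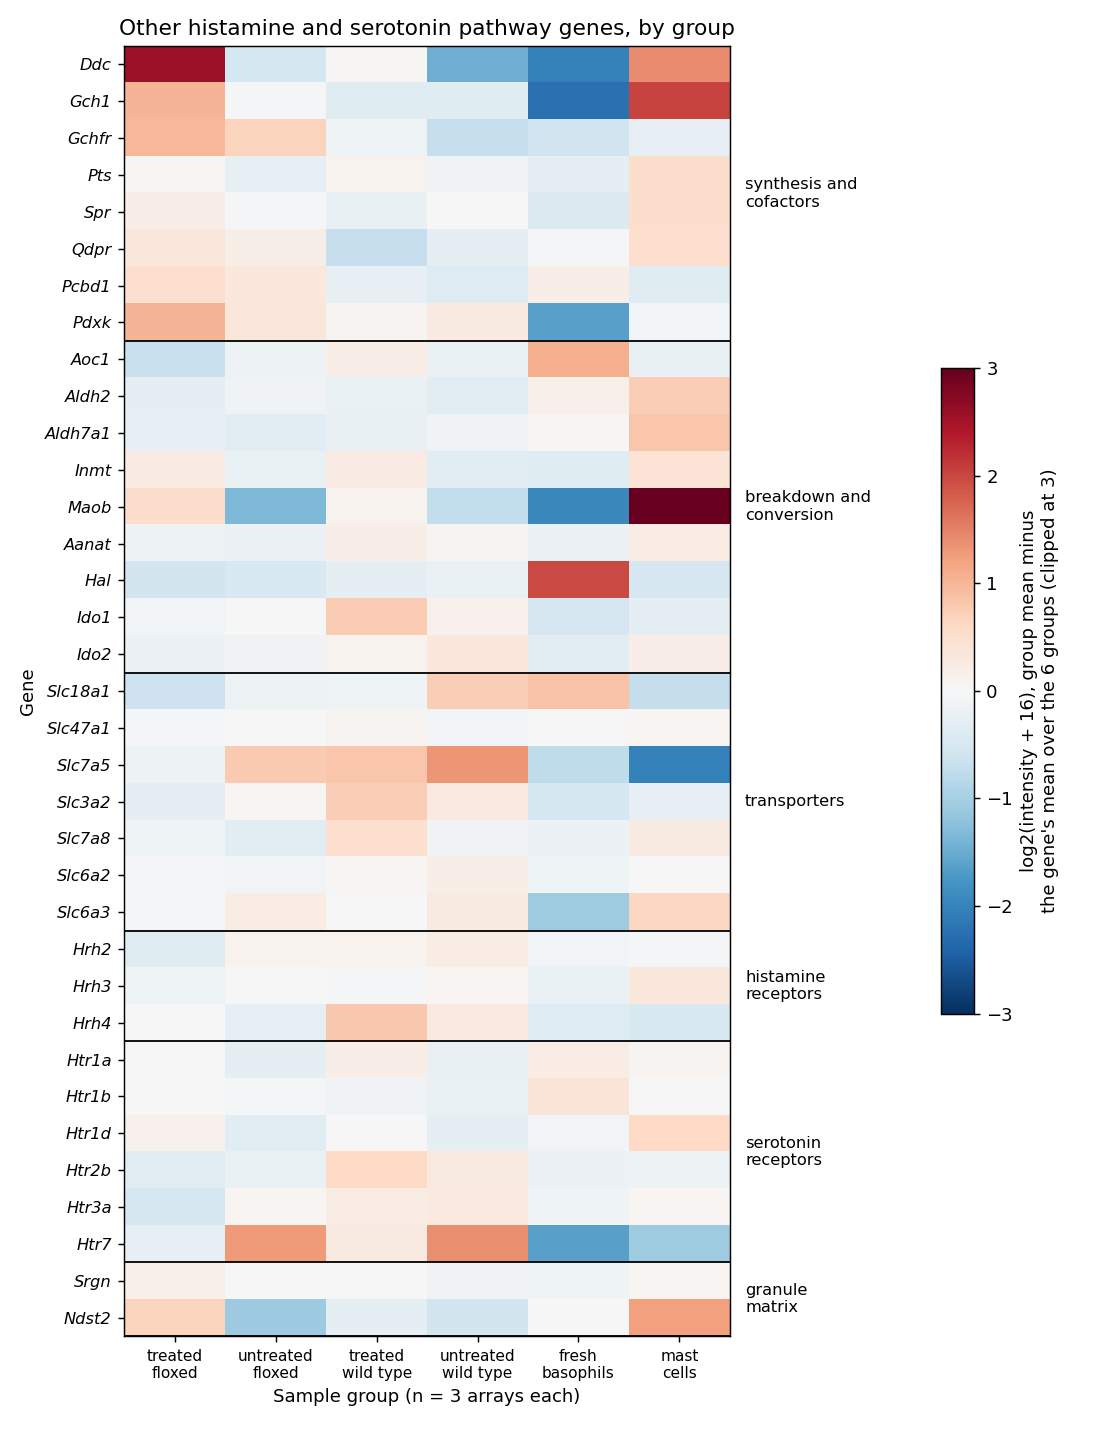
Log2 levels of the 35 other pathway genes above background in some group (rows, by list) in the 6 groups (columns), each as a difference from the gene's own mean over the groups, with colours ending at 3. Ddc and Gch1 are high in treated floxed basophils and mast cells and lowest in fresh basophils.

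The genes with the most similar profiles were searched among 5845 genes by Pearson's r of log2 levels over the 18 arrays, which share only 6 groups. Hdc ran closest to Ets1 (r = 0.997), Evl (0.995) and Ttc39c (0.989). Tph1 ran closest to Atp8b5 (0.987), Hs6st2 (0.986) and Frmpd1 (0.986). Slc6a4 ran closest to Fcgr2b (0.986), Tfec (0.986) and Oas1c (0.984), Slc18a2 to Jade2 (0.959), Mt1 (0.957) and Pold4 (0.955), and Hnmt to Cfb (0.990), Btg2 (0.989) and Vcam1 (0.988). Fcgr2b, the inhibitory Fc gamma receptor, showed the Slc6a4 order, with 3105 ± 252 in treated floxed, 4192 ± 264 in untreated floxed, 9112 ± 232 in treated wild type, 5015 ± 117 in untreated wild type and 1669 ± 114 in fresh basophils, and 743 ± 7.49 in mast cells. Ets1, a transcription factor, averaged 20391 ± 960.1 in treated floxed, 28814 ± 1632 in untreated floxed, 23454 ± 1421 in treated wild type, 27837 ± 806 in untreated wild type and 20918 ± 3186 in fresh basophils, and 486 ± 57.1 in mast cells. Such likeness is a description of these arrays.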

How the data were processed

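Gene expression was measured in 18 samples with single-dye microarrays of 26423 probes. The deposited intensity values were taken as linear and background-subtracted from their range (the lowest is -9), which the labels do not state. The scanner software, and whether the authors normalized further, were not given in the sources used here. Symbols came from the platform annotation, with 1 symbol for 21876 probes, several for 0 and none for 4547. No 2 arrays held identical values.

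Quantile normalization was run on each fit's own arrays, and log2(intensity + 16) was tested two-sided with the lmFit and eBayes functions of limma 3.58.1 (R 4.3.3), with a mean per group, with Benjamini-Hochberg adjustment over 26423 probes. Fold changes on this scale understate those of dim probes. Fresh basophils against mast cells used 6 arrays, the cultured comparisons 12 and the comparisons across preparations 18. Probes under 30 on all arrays of a group counted as at background, and their fold is a bound; that limit was set with the data in view. With 3 arrays per group, their number limits the precision.

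The members, gene lists and marker lists were chosen with earlier results of these data known. Besides the members and Cebpa, up to 6 listed genes per comparison were named, those past the test with the greatest change, and 3 similar genes per member, among genes at 30 or more on all arrays of some group and spanning at least 1 log2 unit. Alternatives covered normalization, offsets, an intensity trend, leaving out the dimmest 30% of probes, the samples in the fit, the replicate number as a block and each array left out. Scripts were tested on simulated data.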

Additional observations from a re-analysis of the deposited data

Results flagged for a closer look

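The effect of 4-hydroxytamoxifen differed between floxed and wild type basophils, by the interaction term of the limma fit, for 3 of the 5 members. For Tph1, the drug effect in floxed minus that in wild type basophils was 2.06 log2 units (SE 0.13, adjusted p = 1.08e-06). For Slc18a2 it was 0.83 log2 units (SE 0.17, adjusted p = 0.00773). For Slc6a4 it was -1.74 log2 units (SE 0.18, adjusted p = 6.33e-05), where the drug effect was -0.69 in floxed and 1.06 in wild type basophils.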

How the results depend on the processing

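Of the member values recomputed under alternatives, 956 kept direction and side of the threshold, 10 changed direction, 10 lost the call and 4 gained one. Log2 fold changes with their limma adjusted p follow. For treated floxed against treated wild type basophils, Hdc was -0.38 (0.116) with median scaling, -0.21 (0.118) without normalization, -0.29 (0.078) with only those groups, and -0.38 to -0.25 with 1 array left out. With median scaling, untreated floxed against wild type gave 0.0060 (0.993) for Tph1 and 0.14 (0.691) for Slc18a2. The same scaling gave -0.011 (0.983) for Slc18a2 and 0.021 (0.969) for Hnmt for the drug in floxed basophils, 0.48 (0.0792) for Tph1 for the drug in wild type basophils, 0.52 (0.201) for Slc18a2 in the interaction, -0.067 (0.788) for Slc18a2 in cultured wild type basophils against mast cells, and -0.091 (0.75) for Cebpa against fresh basophils. It left 3166 probes called for the drug in floxed (4925 otherwise), 3053 for the drug in wild type (5396) and 1494 for the interaction (2976). Without normalization, Hnmt for the drug in floxed basophils was 0.10 (0.615). For the drug in wild type basophils, that setting gave 0.17 (0.273) for Tph1, -0.47 (0.00297) for Hdc and -0.080 (0.649) for Cebpa, and against fresh basophils it gave -0.14 (0.419) for Cebpa. Hnmt for the drug in floxed basophils ran from -0.090 to 0.045 with 1 array left out. In the interaction, Hdc was -0.35 (0.0268) with an offset of 50, -0.35 (0.0435) with an intensity trend and -0.43 to -0.30 with 1 array left out, passing without treated wild type replicate 1 (0.0495). Slc18a2 in cultured wild type basophils against mast cells ran from -0.023 to 0.16 with 1 array left out, turning without mast cell replicate 3. The causes were not tested. Hnmt against mast cells depended on the offset, at 2.40 to 5.07 for fresh, 0.81 to 2.72 for cultured wild type and 0.43 to 1.84 for treated floxed basophils.

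Without normalization, 78.2% of calls for fresh basophils against mast cells were higher, against 45.2% in the main setting. That share was 51.4% for treated floxed against treated wild type basophils and 62.0% without normalization. It was 54.0% for untreated floxed against untreated wild type, with 73.1% under median scaling and 33.6% without normalization. It was 50.6% for the drug in floxed and 36.0% under median scaling, 52.5% for the drug in wild type with 67.9% and 22.5%, and 48.5% for the interaction with 27.8% and 79.0%. Against mast cells it was 43.1% for cultured wild type and 66.8% without normalization, and 44.5% for treated floxed and 65.4% without; against fresh basophils it was 49.6%, with 37.3% under median scaling and 35.6% without normalization. The median of all probes moved by over 0.1 in 3 comparisons, from -0.04 to 0.16 for fresh basophils against mast cells and from -0.04 to 0.11 for cultured wild type basophils against mast cells without normalization, and from -0.01 to -0.13 (median scaling) or 0.12 (no normalization) in the interaction.

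Same-numbered samples correlated in their deviations from group means at -0.38 to 0.16 in the cultured groups and -0.18 to -0.03 in the other 2, so the numbers were not taken to pair samples. With the replicate number as a block, 7525 probes instead of 7931 were called for treated floxed against treated wild type, 9367 instead of 9988 for fresh basophils against mast cells, and 2444 instead of 2976 for the interaction, and no member call changed. Each member had 1 probe, so another probe could not be tried.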
